A study of Mus musculus with 2 samples.

Results

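MicroRNA genes are short genes whose transcripts are cut to a hairpin and then to a mature RNA of about the length of the sequences printed here. The seed of the mature RNA, its bases 2 to 8, pairs with target messenger RNAs and lowers their output. Trimethylation of lysine 27 of histone H3 (H3K27me3) is placed by Polycomb repressive complex 2 and spreads in broad domains over developmental genes that a cell type keeps silent. The Hox clusters, which set position along the body axis, are its textbook example, and microRNA genes lie between the Hox genes.

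Chondrocytes, the cells that make cartilage, came from rib cartilage of wild type newborn mice of the CD1 strain, were freed with collagenase and stayed in culture overnight in medium with serum. DNA precipitated with an H3K27me3 antibody (ChIP, 1 library, 17237574 tags after filtering) was compared with input chromatin from the same kind of cells (1 library, 17004082 tags). Groups follow the sample titles, which the antibody tags of both samples contradict. In the deposited list the library that the peak calling took as ChIP exceeded the other over the HoxA, HoxB, HoxC and HoxD clusters. These are known domains of this mark, and the widest of all peaks lay in HoxC. This gives the direction of the peak list and does not settle whether the titles or the tags are right. With 1 library per group no value had a replicate, so none of the differences below could be tested, and intervals cover counting error only. The authors deposited a list of 19359 regions in which ChIP exceeded input (peaks) and joined 11263 of them to gene records within 5 kb. The q-values are means over a peak and reached 0.0991, and 60.8% of all peaks had a mean of 0.05 or less. This series holds no RNA measurement, so the cell type was not checked by expression here. None of the 6 cartilage genes looked up (Col2a1, Acan, Sox9, Matn1, Col9a1 and Col11a1) was joined to a peak, and the nearest peak lay 36.8 kb from Col11a1 and 1315 kb from Sox9.

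The microRNA genes described here are those whose symbol was joined to a peak, so they were chosen on these same peak values. Of 4987 symbols joined to a peak, 59 were of this kind, namely 58 microRNA genes and Mir124a-1hg, the host transcript of Mir124a-1. They formed 89 pairs with 65 peaks. Most had 1 peak (33 genes), 22 had 2 peaks and 4 had 3 peaks, these being Mir3470a, Mir129-1, Mir135b and Mir124a-1hg. Coordinates are those of mouse genome build GRCm38 (mm10).

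Of the 59 symbols, 21 lay whole under a peak, 2 lay partly under one and 36 were joined only because a peak lay beside them. Over all joined symbols, 5.07% lay whole under a peak and 68.8% had at least 1 base under one. These microRNA genes had a median length of 84 bp, which a peak either covers or misses as a rule, so this contrast with longer genes cannot be told apart from gene length.

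The genes lying whole under peaks included members of the microRNA families miR-10, miR-196, miR-9, miR-129 and miR-137. Their main mature sequences are shown because the families are set out by seed. In each line the seed is in capitals. Sequences are from RefSeq (GRCm38.p6), where 50 of the 59 symbols had a mature sequence that was used and 47 a hairpin.
miR-10a-5p: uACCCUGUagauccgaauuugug
miR-10b-5p: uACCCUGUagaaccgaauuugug
miR-196a-5p: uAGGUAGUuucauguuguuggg
miR-196b-5p: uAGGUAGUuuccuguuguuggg
miR-9-5p: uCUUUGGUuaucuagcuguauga
miR-129-5p: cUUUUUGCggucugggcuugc
miR-137-3p: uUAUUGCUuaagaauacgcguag

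The seed ACCCUGU belonged to 2 genes of the sequence table, Mir10a and Mir10b, and both lay whole under a peak. The seed AGGUAGU belonged to Mir196a-1, Mir196a-2 and Mir196b, and all 3 did. The seed CUUUGGU belonged to Mir9-1, Mir9-2 and Mir9-3, again 3 of 3, although the deposited annotation gave no symbol to the record at Mir9-1. Of the 2 genes with the seed UUUUUGC, Mir129-2 lay whole under a peak and Mir129-1 lay 68 bp from one of 0.551 kb with a mean q-value of 0.0988 and 2976 bp from the nearest with a mean q-value under 0.05. These families were picked because they had covered genes. Of the 12 seeds found in at least 2 joined genes, 4 had every gene of the sequence table whole under a peak, namely those of miR-10-5p, miR-196-5p and both arms of miR-9. Of all seeds found in at least 2 microRNA genes of that table, 6 (2.78%) did. The 12 seeds were chosen on these same peaks, so nothing is read from this contrast. The 3 Mir124a genes, described below, took no part in either count.

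Genes with identical mature RNAs differ in the rest of the hairpin, which marks them as separate loci. In the hairpins of Mir9-2 (chr13:83738814-83738885, + strand) and Mir9-3 (chr7:79505264-79505353, + strand), both mature arms are in capitals.
Mir9-2 hairpin: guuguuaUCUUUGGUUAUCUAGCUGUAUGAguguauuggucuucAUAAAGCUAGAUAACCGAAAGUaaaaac
Mir9-3 hairpin: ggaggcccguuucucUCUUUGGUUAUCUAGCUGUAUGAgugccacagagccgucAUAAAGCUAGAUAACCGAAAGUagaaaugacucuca

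Among 82 mature sequences of the joined genes there were 67 seeds. The seed AGCAGCA of the miR-15 and miR-16 family belonged to 11 genes of the sequence table, of which Mir195a and Mir497 had a peak within 5 kb and none was covered. The seed GGAAGAC of miR-7 belonged to 3 genes, of which Mir7-2 had a peak within 5 kb, while Mir7-1 lay 33.1 kb and Mir7b 85.1 kb from the nearest.

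The widest of the covering peaks lay over Hox cluster genes. Mir196a-2 (chr15:102973350-102973434), in the HoxC cluster, lay under a peak of 105.1 kb, the widest of all 19359, with a fold enrichment over input (fold) of 3.81. This peak also covered Hoxc10, Hoxc11, Hoxc12 and Hoxc13, transcription factors of the posterior body axis, the noncoding RNA gene Hotair, and the start of Hoxc9. Mir10b (chr2:74726070-74726137) lay under a peak of 55.8 kb with a fold enrichment of 3.77, the tenth in width, with the joint record of Hoxd3 and Hoxd4 covered, Hoxd8 overlapped and Hoxd1 in the flank. Mir196b (chr6:52230081-52230165) lay under a peak of 36.1 kb and fold 3.73 with Hoxa10 and Hoxa11, and Hoxa9 and Hoxa13 reached into it.

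Both HoxB genes had narrower domains. Mir196a-1 (chr11:96265164-96265265) lay under a peak of 30.2 kb and fold 3.66 that overlapped Hoxb9. Mir10a (chr11:96317165-96317274) lay under a peak of 7.39 kb and fold 3.38, joined to Hoxb3, Hoxb4 and Hoxb5, and a second peak of 14.0 kb and fold 3.55 over the start of Hoxb3 lay in its flank. Mir10a was therefore the 1 Hox cluster microRNA gene in this set under a peak of less than 10 kb. Of the 6 genes of this list, 5 (83.3%) thus lay whole under a peak, against 2.77% of all microRNA genes of the gene table. Mir615, the remaining gene, had no peak within 5 kb, and its nearest lay 27.5 kb away.

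**Figure D1:**
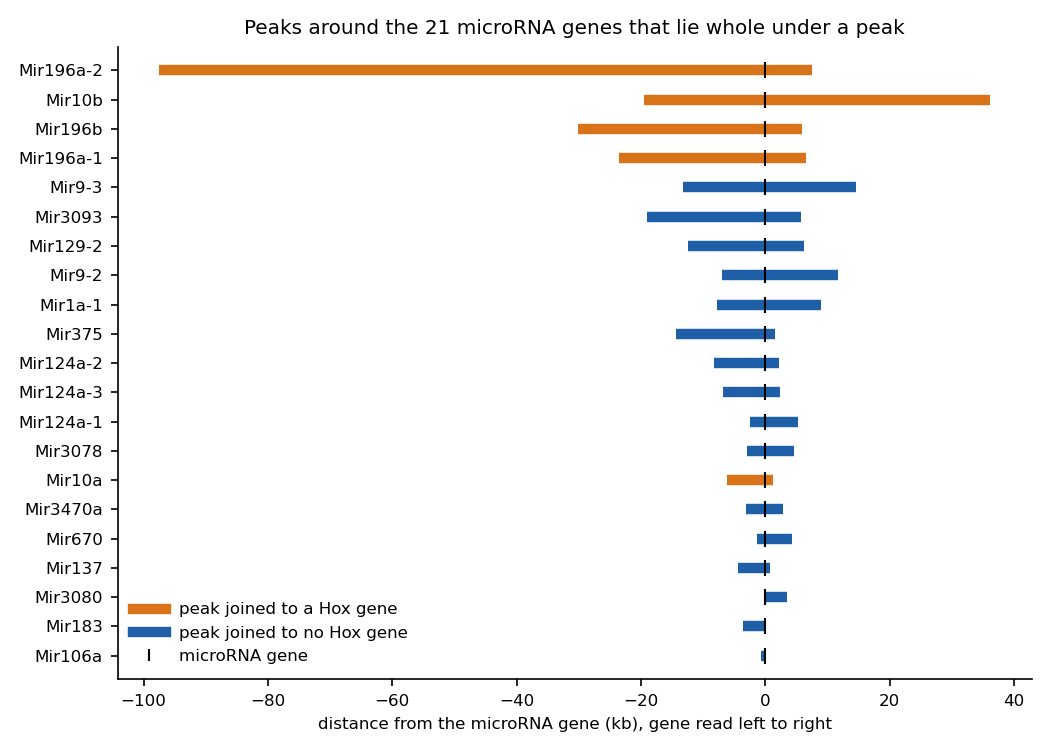
Peaks around the 21 microRNA genes that lay whole under a peak. The x axis is the distance in kb from the gene, with the gene read from left to right, bars are the peaks and the black ticks are the genes. The peak at Mir196a-2 reached 97.5 kb upstream of the gene and 7.55 kb downstream.

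The microRNA gene was a small part of the covering peak. It took a median of 0.729% of the peak's width and at most 7.32%, at Mir106a. The map of peaks around the genes shows that the peak reached farther upstream than downstream at 13 genes and the reverse at 8. The distance from the gene to the nearer edge ran from 114 bp at Mir183 over a median of 2829 bp to 19503 bp at Mir10b.

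The largest other group was that of microRNAs known from neurons. Mir9-3, of the miR-9 family that acts in neural progenitors, lay under a peak of 28.0 kb with a fold enrichment of 3.71. Mir9-2 (chr13:83738814-83738885) lay under a peak of 18.7 kb and fold 3.57, together with the end of the deposited record of the noncoding gene C130071C03Rik. The window of 300 bp at an annotated start of that gene also lay under this peak. The Mir3093 peak, of 24.9 kb and fold 3.77, also held Mir9-1 (chr3:88215598-88215686). All 3 miR-9 genes thus stood under peaks of 18.7 kb or more, and 3.46% of all peaks reached 10 kb.

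The 3 genes for miR-124, the most abundant microRNA of mature neurons, were covered as well, by narrower peaks. The Mir124a-2 peak (chr3:17787331-17797990) spanned 10.7 kb, that of Mir124a-3 (chr2:180887211-180896541) 9.33 kb and that of Mir124a-1 (chr14:64588229-64595938) 7.71 kb. Their fold enrichments were 3.34, 3.29 and 3.38. The last of these peaks also covered Mir3078 and part of the host transcript Mir124a-1hg, and a separate peak of 14.4 kb and fold 3.35 lay in the flank of the same 3 symbols.

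Mir129-2 (chr2:94241364-94241453) lay under a peak of 18.8 kb and fold 3.57. Mir670, on the same chromosome (chr2:94261300-94261399), lay under the next peak, of 5.69 kb and fold 3.24. The noncoding gene Mir670hg overlapped both peaks, but the windows of 300 bp at its annotated starts lay under neither. Mir137, which acts in neuronal maturation, lay under a peak of 5.29 kb and fold 3.29, 754 bp from its edge. Mir132 and Mir212, which respond to neuronal activity, were not covered. Their 2 peaks, of 1.49 kb (fold 3.38) and 1.74 kb (fold 3.43), lay on either side, 422 bp from Mir212 and 498 bp from Mir132. Both peaks were joined through the flank to Hic1, a transcriptional repressor gene, and to Dph1. The peak of 1.74 kb overlapped the end of Ovca2, and that of 1.49 kb had Ovca2 in its flank.

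In all, 13 of the 18 neuronal microRNA genes of the gene table had a peak within 5 kb and 8 lay whole under one. Of all microRNA genes of that table, 10.3% had a peak within 5 kb and 2.77% lay whole under one. Over all 49943 genes of any kind these shares were 16.9% and 1.17%. Mir128-2 (105 bp) and Mir153 (4.69 kb) were near a peak too but carried no symbol in the deposited annotation. Mir128-1 and the 4 Mir219 genes lay 17.2 to 254.7 kb from the nearest peak.

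Genes known from sensory and endocrine cells made up the next group. Mir375, an islet and neuroendocrine microRNA gene (chr1:74900658-74900721), lay under a peak of 16.1 kb and fold 3.42 that reached into Ccdc108. A peak of 41.6 kb and fold 3.53 lay in its flank and covered Fev, a transcription factor gene of serotonergic neurons, and Cryba2, a lens crystallin gene, and overlapped Cdk5r2.

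Mir96, Mir182 and Mir183 belong to 1 cluster, expressed in hair cells and photoreceptors. A single peak of 3.79 kb and fold 3.42 (chr6:30169554-30173338) covered Mir183 whole, began 3 bp from Mir96 and lay 3562 bp from Mir182. Their mature RNAs are shown because the 3 genes of this cluster met the peak differently.
miR-183-5p: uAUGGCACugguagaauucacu
miR-96-5p: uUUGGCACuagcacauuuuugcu
miR-182-5p: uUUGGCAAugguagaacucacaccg

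Mir96 thus missed the peak by less than the length of a sequenced tag, which was 100 bp, and its place among the flanking genes depends on where the peak caller set the edge. Mir7-2 lay 85 bp from a peak of 12.7 kb and fold 3.41. Of the 11 genes of this list, 5 (45.5%) had a peak within 5 kb and 2 (18.2%) lay whole under one, against 10.3% and 2.77% of all microRNA genes, and 3 of the 5 were the cluster at 1 peak. The genes Mir216a, Mir216b, Mir216c and Mir217, known from the pancreas, lay 356.0 to 373.6 kb from the nearest peak.

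Mir1a-1 and Mir133a-2 are muscle microRNA genes that share a host transcript. The peak of 16.8 kb and fold 3.30 (chr2:180381268-180398078) covered Mir1a-1 whole and ended 0.302 kb before Mir133a-2. The other muscle genes Mir133a-1, Mir1a-2, Mir133b, Mir206, Mir208a and Mir208b lay 56.8 to 126.8 kb from the nearest peak, and Mir499, which carried no symbol in the annotation, lay 729 bp from one. Copies of the miR-1 and miR-133 genes were thus not covered together, unlike those of miR-9.

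The start windows of the host transcripts Mir9-3hg and Mir1a-1hg lay under the peaks of their microRNA genes, and 1 of each is shown because the peaks extend over them. Each spans 300 bases, most of them before the annotated start, with every CG dinucleotide in capitals. The Mir9-3hg window (chr7:79499776-79500075, + strand) held 35 CG and the Mir1a-1hg window (chr2:180385354-180385653, + strand) 15. A second start window of Mir9-3hg under the same peak held 28 CG, and that of C130071C03Rik under the Mir9-2 peak held 7. The start windows of Mirc35hg, which overlapped the Mir183 peak, and of Mir17hg lay under no peak. They held 35 and 4 CG.
Mir9-3hg: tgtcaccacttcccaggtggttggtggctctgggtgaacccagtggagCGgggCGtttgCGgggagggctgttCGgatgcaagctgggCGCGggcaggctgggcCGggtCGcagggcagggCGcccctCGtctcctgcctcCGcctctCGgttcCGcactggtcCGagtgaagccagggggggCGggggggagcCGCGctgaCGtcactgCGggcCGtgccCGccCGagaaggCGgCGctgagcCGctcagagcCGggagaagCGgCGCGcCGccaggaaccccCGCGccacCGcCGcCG
Mir1a-1hg: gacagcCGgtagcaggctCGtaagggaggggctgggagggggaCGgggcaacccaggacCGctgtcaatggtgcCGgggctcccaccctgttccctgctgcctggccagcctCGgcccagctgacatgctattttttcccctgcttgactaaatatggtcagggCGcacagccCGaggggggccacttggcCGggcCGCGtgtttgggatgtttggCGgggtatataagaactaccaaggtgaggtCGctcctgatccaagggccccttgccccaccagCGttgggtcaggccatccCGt

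The motif CG, which reads the same on both strands, occurred in 94.6% of all 32851 start windows of this length. Windows under peaks that covered a whole microRNA gene (20 windows of 18 genes) held a median of 10.5 CG, against 10 in the 1359 windows under any peak and 7 in all windows. The 6 of these windows under peaks joined to no Hox gene held a median of 12, between 4 and 35, and no window at the HoxC peak was used here. The 20 windows share few peaks, and nothing is read from their medians. The hairpins of covered genes had a median GC content of 45.7% (15 hairpins), those of flanking genes 50.0% (31 hairpins) and all 1005 hairpins used 51.7%. They held a median of 3, 2 and 1 CG in the same order, and 93.3%, 83.9% and 66.5% of them held at least 1.

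Among epithelial genes, 3 of 9 (33.3%) had a peak within 5 kb and none was covered, against 10.3% and 2.77% of all microRNA genes. With 9 genes, a count of none covered is near that share. Mir203, an epidermal microRNA gene, lay 570 bp from a peak of 4.48 kb and fold 3.49 near Aspg. Mir34b and Mir34c, of multiciliated cells, lay 1829 and 2364 bp from a peak of 0.872 kb, with fold enrichment 2.86, and a peak of 1.20 kb and fold 3.05 lay on their other side. Mir205 lay 10.0 kb from a peak, and Mir141, Mir200a, Mir200b, Mir200c and Mir429 lay 117.6 to 272.9 kb away.

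Of the blood and endothelial genes, 2 of 12 (16.7%) were within 5 kb and none was covered, against 10.3% and 2.77% of all microRNA genes. These were Mir142 and Mir142b, which overlap and form 1 locus, near a peak of 9.22 kb and fold 3.48. The deposited record called Mir142b matches Mir142 in the gene table to within 1 base, and that called Mir497b matches Mir497, so the values of both names are uncertain. Mir155 lay 7.26 kb from a peak, Mir146b 14.3 kb, Mir150 43.1 kb and Mir223 1676 kb. Mir126a and Mir126b lay 68.0 kb, Mir144, Mir451a and Mir451b 93.5 to 93.7 kb, and Mir146 147.7 kb from the nearest.

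The 3 miR-17 clusters lay at different distances from peaks. On chromosome 14, Mir17, Mir18 and Mir19a lay 4603, 4783 and 4932 bp from a peak of 0.877 kb and fold 3.52. The next genes of the same cluster, Mir20a, Mir19b-1 and Mir92-1, lay 5088, 5236 and 5358 bp away and so fell outside the reach of 5 kb. The distance threshold thus divided 1 cluster. Of the joined genes, Mir195a (4485 bp) came next inside it. Mir6381 (5047 bp) and Mir7043 (5103 bp) lay just outside, and Mir7216 (4745 bp), Gm51269 (4695 bp), Mir153 (4688 bp) and Mir1224 (4544 bp) lay inside it by the gene table without being joined by symbol.

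On the X chromosome, a peak of 0.888 kb and fold 3.13 covered Mir106a whole and Mir18b in part. Mir20b, Mir19b-2, Mir92-2 and Mir363 followed at 180, 306, 444 and 605 bp, and a second peak of 2.74 kb and fold 3.08 lay farther upstream of the same cluster. These 6 genes were the most joined to 1 peak. The mature RNAs of the 3 genes with the seed AAAGUGC near a peak are shown because they tie both clusters together.
miR-17-5p: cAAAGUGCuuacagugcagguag
miR-106a-5p: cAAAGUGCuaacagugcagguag
miR-20b-5p: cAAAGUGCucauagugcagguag

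Mir106b, Mir93 and Mir25, of the third cluster of this family, lay 41.1 to 41.5 kb from the nearest peak. Of the 12 genes that the list pattern matched, 7 (58.3%) were within 5 kb and 1 (8.33%, 95% Wilson interval 1.49 to 35.4%) was covered, against 10.3% and 2.77% of all microRNA genes. The 7 belonged to 2 clusters. The pattern did not match Mir18, Mir92-1 and Mir92-2 as these files spell them.

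In 3 lists no gene was within 5 kb of a peak. Since 10.3% of all microRNA genes of the gene table had one, lists of this size can hold none without standing apart, and the upper 95% Wilson limits were 65.8%, 25.9% and 21.5%. The cartilage microRNA genes Mir140 and Mir455 lay 49.4 and 240.0 kb from the nearest peak. The 11 let-7 genes, which are broadly expressed in differentiated cells, lay 15.6 to 698.3 kb away. The 14 genes of the pluripotency clusters Mir290 to Mir295 and Mir302 with Mir367 known from embryonic stem cells, lay 74.8 to 190.6 kb away.

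**Figure D2:**
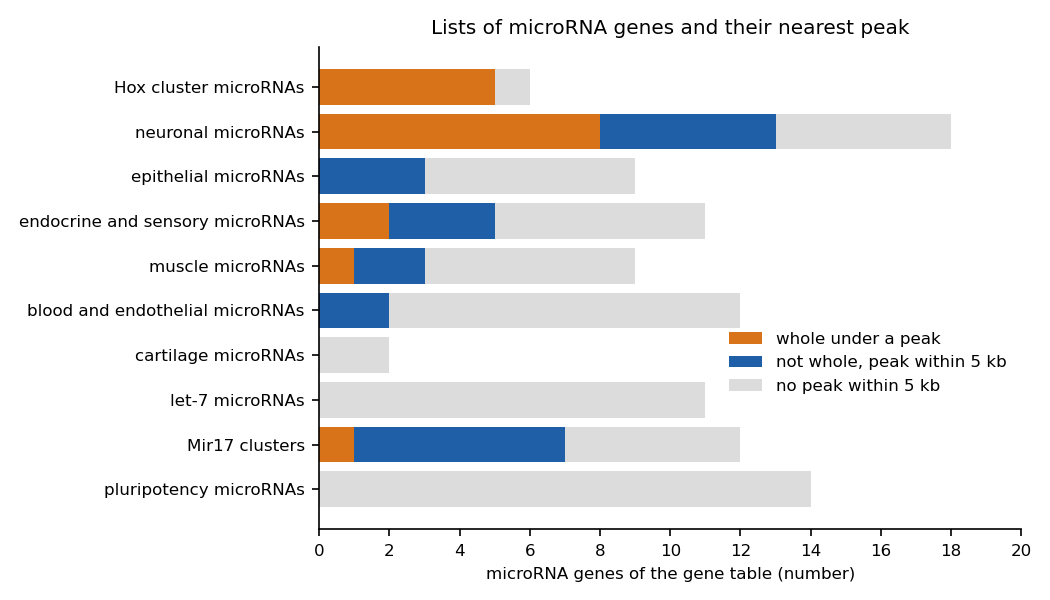
Number of microRNA genes (x axis) in each list (y axis) that lay whole under a peak, that did not but had a peak within 5 kb, or that had none. In the Hox cluster list 5 of 6 genes lay whole under a peak, in the neuronal list 8 of 18, and in the let-7 and pluripotency lists no gene had a peak within 5 kb.

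The remaining covered genes had fewer known roles. Mir3470a lay under a peak of 6.06 kb and fold 3.45 that reached into the end of Lbx2, a homeobox gene. A neighbouring peak of 2.12 kb joined to Mir3470a, Lbx2 and Pcgf1, which codes for a Polycomb subunit, had a fold enrichment of 3.99, the highest of the 65. Mir3080 lay under a peak of 3.79 kb and fold 3.29 within Tcf20.

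**Figure D3:**
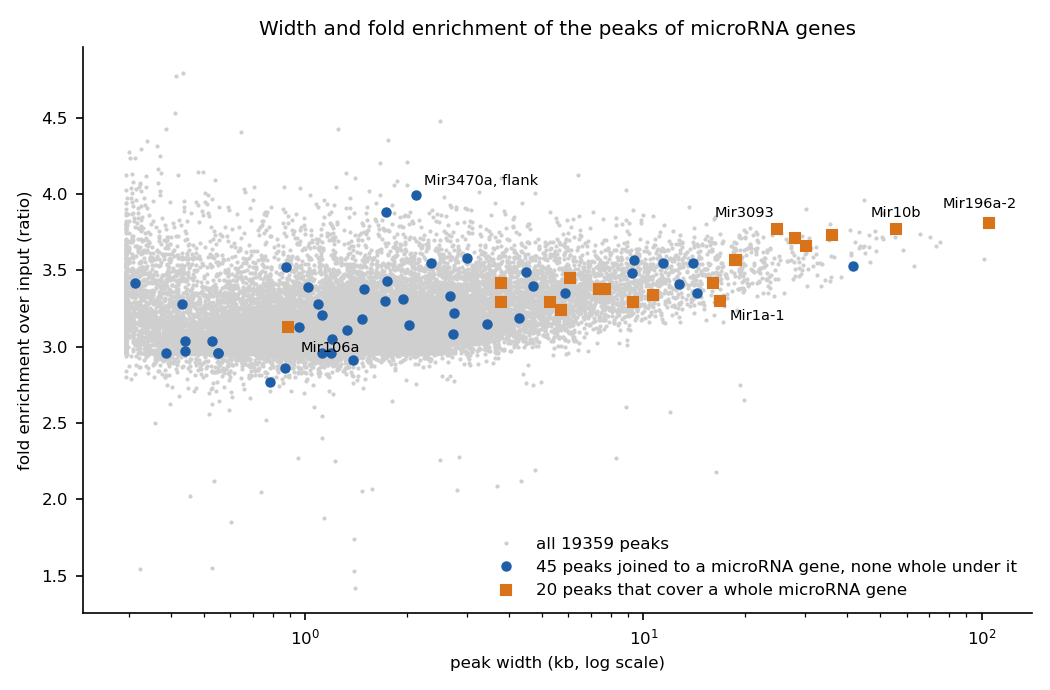
Fold enrichment over input (y axis, ratio) against peak width (x axis, kb, log scale) for all peaks (grey), peaks joined to a microRNA gene with none whole under them (blue circles) and peaks that covered one whole (orange squares). The covering peaks lay between 0.888 and 105.1 kb in width and between 3.13 and 3.81 in fold enrichment.

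The 65 peaks had a median width of 2.76 kb, between 0.314 and 105.1 kb, against 1.27 kb for all peaks. Their median fold enrichment was 3.34, between 2.77 and 3.99, against 3.16. A width of 10 kb was reached by 16 (24.6%), a mean q-value no higher than 0.01 by 19 (29.2%) and a fold enrichment of 3.5 by 17 (26.2%). The same limits were met by 3.46%, 11.0% and 9.56% of all peaks. These values chose the genes in part, since a wide peak can be joined to more genes, and nothing is read from the contrast.

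Whether a gene lies whole under a peak depends on the width of the peak, so the next values describe the split and nothing is read from them. The 20 covering peaks had a median of 13.4 kb and a fold enrichment of 3.42, and the other 45 had 1.72 kb and 3.28. All 20 covering peaks had mean q-values no higher than 0.05, and 32 of the other 45 did. The 380 peaks that covered any whole gene record had a median of 9.79 kb and a fold enrichment of 3.42, close to the covering peaks of microRNA genes. The 5 covering peaks joined to a Hox gene had a median of 36.1 kb and the 15 others 9.33 kb. The pileup, which is the depth of ChIP fragments averaged along a peak, ran from 13.52 to 15.09 at the 5 Hox peaks, and that of the 15 others from 10.95 to 14.25, so the ranges overlapped.

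**Figure D4:**
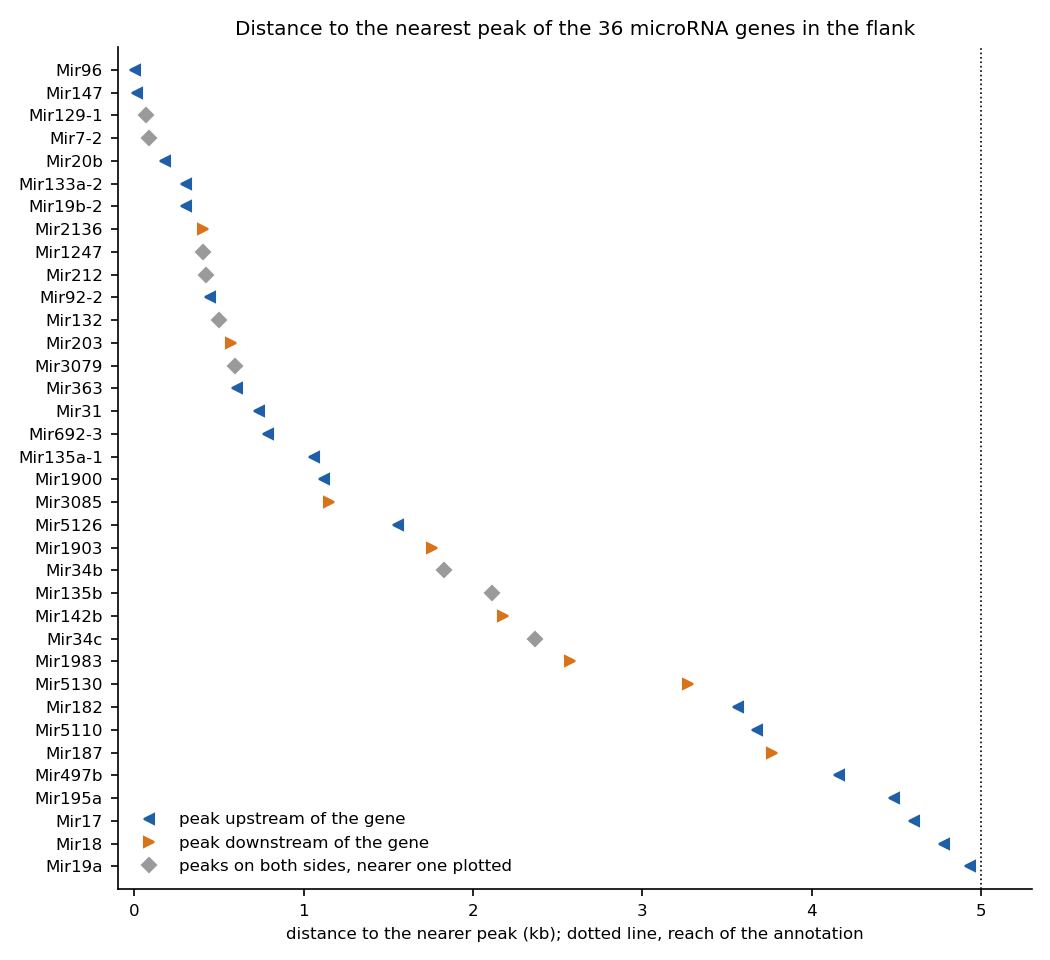
Distance in kb (x axis) from each of the 36 flanking microRNA genes (y axis) to its nearer peak, with the marker showing the side of the peak. The distances ran from 3 bp at Mir96 to 4932 bp at Mir19a.

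Among the 36 flanking genes, the peak lay upstream of 19 and downstream of 8, and 9 had peaks on both sides. The median distance was 1090 bp and 17 lay within 1 kb. For 11 of the 36 the nearest peak had a mean q-value above 0.05, and 6 of these 11 had another joined peak at or under it, farther away. These were Mir34b, Mir34c, Mir129-1, Mir135b, Mir3079 and Mir3085, and the others were Mir187, Mir1983, Mir2136, Mir5110 and Mir5126. Mir147 lay 16 bp from a peak of 1.73 kb inside AA467197 with a fold enrichment of 3.88, the second highest of the 65. Mir1247 had a peak of 5.84 kb and fold 3.35 at 406 bp and one of 9.39 kb and fold 3.57 on its other side, and both were joined to Dio3, an imprinted gene that codes for a deiodinase of thyroid hormone. Mir135a-1 lay 1059 bp from a peak of 0.43 kb and fold 3.28 that overlapped the end of Glyctk and 2685 bp from one of 3 kb and fold 3.58, and Mir135b had 3 peaks of 0.441 to 4.28 kb around it within Lemd1, the strongest with fold 3.55. Mir31 lay 738 bp from a peak of 1.72 kb and fold 3.30 that was joined to no other record.

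Mir195a and the record called Mir497b lay 4485 and 4160 bp from a peak of 11.4 kb and fold 3.55 that covered Bcl6b. Mir1900 lay 1121 bp from a peak of 4.71 kb and fold 3.40 within Icam5, a neuronal adhesion gene, and Mir1903 lay 1758 bp from one of 3.45 kb and fold 3.15 within Nrp1, a semaphorin coreceptor gene. Mir5126 lay 1554 bp from a peak of 1.33 kb and fold 3.11 within Dner. The remaining flanking genes were Mir187, Mir692-3, Mir1983, Mir2136, Mir3079, Mir3085, Mir5110 and Mir5130, with nearest peaks of 0.314 to 2.76 kb and fold enrichments of 2.77 to 3.42. The peak at Mir5110 had the lowest fold enrichment of the 65.

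Of the 65 peaks, 34 (52.3%) were joined to another gene symbol, 54 symbols in all, and 13 were joined to no other record. A Hox symbol was joined to 6 of the 65 peaks and to 5 of the 20 covering peaks, and those 5 carried the 5 covered Hox cluster microRNA genes. Most of the other covering peaks overlapped no protein-coding gene. Those of Mir9-2, Mir9-3, Mir3093, Mir129-2, Mir670, Mir1a-1, Mir124a-1, Mir124a-2, Mir183 and Mir106a overlapped long noncoding RNA genes of the gene table and no protein-coding gene. Those of Mir137 and Mir124a-3 overlapped neither. Shared symbols and overlaps with protein-coding genes were not counted over all peaks, so nothing is read from these counts.

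Over all microRNA genes of the gene table, 10.3% of 1228 (95% Wilson interval 8.69 to 12.1%) had a peak within 5 kb. Of these 1228, 34 (2.77%, 1.99 to 3.84%) lay whole under one. Protein-coding genes had a peak within 5 kb more often (22.0%) and lay whole under one less often (0.80%). Long noncoding RNA genes gave 19.3% and 1.30%. These contrasts with longer kinds of gene cannot be told apart from gene length. Among other small noncoding genes, 0.522% of snoRNA genes, 1.69% of snRNA genes and 10.0% of tRNA genes lay whole under a peak. Of microRNA genes inside a long noncoding RNA gene and no protein-coding gene, 18 of 121 (14.9%, 9.62 to 22.3%) lay whole under a peak. Host transcripts named after their microRNA count as long noncoding RNA genes here. Inside protein-coding genes this was 7 of 825 (0.848%, 0.412 to 1.74%), and outside both 9 of 282 (3.19%, 1.69 to 5.95%). Neighbouring microRNA genes share peaks, so these genes are not independent, and the contrast was not tested.

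**Figure D5:**
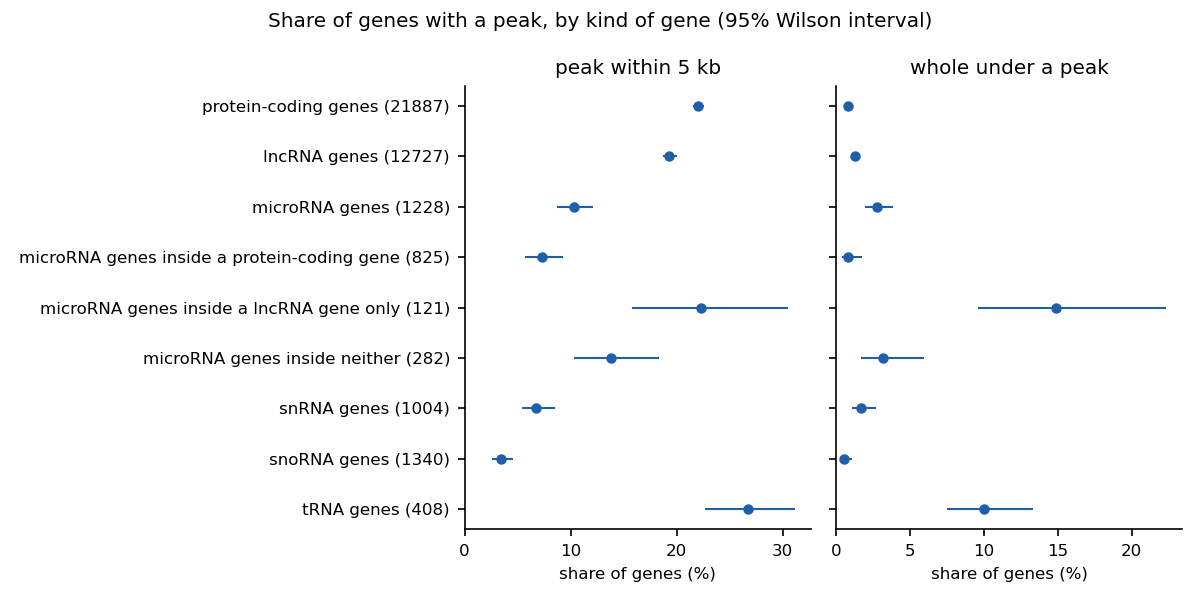
Share of genes (x axis, %) with a peak within 5 kb (left) and lying whole under a peak (right) by kind of gene (y axis, number of genes in brackets), with points for shares and bars for 95% Wilson intervals. MicroRNA genes inside a long noncoding RNA gene only had the highest share of genes lying whole under a peak (14.9%) of the kinds plotted.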

How the data were processed

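Per the labels, DNA was sequenced from 1 H3K27me3 ChIP library and 1 input library, and the submitters' processing notes name CASAVA 1.8.4, Bowtie2, MACS2 and mm10. The authors called broad peaks with MACS 2.1.0.20140616 with a q-value cutoff of 0.05 in the header, although the list holds peaks with mean q-values up to 0.0991. Per the file headers, 17237574 ChIP and 17004082 input tags of 100 bp remained. The authors deposited for each peak its width, the pileup (a coverage signal), the fold enrichment (a ratio to the input background) and p-values and q-values as −log10 values averaged over the peak. A second deposited table joins each peak to Ensembl records within 5 kb; the tool is not given in the sources used here.

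Symbols were split at semicolons and kept where they began with Mir and a number (Mirlet7 included). Whole meant that both gene ends lay under 1 peak. Distances to genes without a joined symbol came from the RefSeq gene table of GRCm38.p6, in which all 59 symbols were found, with starts that differed by at most 26 bp from the deposited ones. The genes and the 10 lists were chosen with earlier results of these data known. Named were all list genes, the 10 under the widest peaks, those of highest fold enrichment or most peaks, and those next to the reach of 5 kb. Genes without a role in a list were added to account for every joined symbol. No test was run, since each group held 1 library. Shares have 95% Wilson intervals (scipy 1.17.1). The alternatives were limits on q-value, fold enrichment, width and reach, the gene table's positions, counting by locus and host transcripts left out.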

Additional observations from a re-analysis of the deposited data

Results flagged for a closer look

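Of the microRNA genes of the gene table with a peak within 5 kb, 68 were not among the genes joined by symbol in the deposited table, and 21 of these had a deposited record without a symbol at the same place, with both ends within 30 bp. These 68 included 13 genes that lay whole under a peak and that no comparison of joined symbols used. They were Mir9-1, Mir129b, Mir7k, Mir7229, Mir7230, Mir6405, Mir6546, Mir7055, Mir7086, Gm25641, Gm51268, Gm51272 and Gm51285. Several of them share their position with a gene described above, since Gm25641 lies within Mir9-1, Gm51268 within Mir9-2, Gm51285 within Mir9-3, Gm51272 within Mir124a-2 and Mir129b within Mir129-2. Mir7230 lay under a peak of 33.5 kb with a fold enrichment of 3.40, and Mir7k under one of 30.2 kb with 3.61. The peak over Mir6546 had a pileup of 29.14 at a fold enrichment of 3.38, while the peaks of the joined genes had pileups of 9.86 to 15.09.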

How the results depend on the processing

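Of 44 values recomputed under alternatives, 26 stayed within the limits set for them and 18 moved. No paired analysis was possible because the ChIP and the input consist of a single library each. Requiring mean q-values no higher than 0.01 left 18 symbols, 10 of them whole under a peak and 8 in the flank, and 19 peaks whose median width was 14.0 kb, of which 84.2% were joined to another gene. Requiring a fold enrichment of at least 3.5 left 20 symbols, 8 whole and 12 in the flank, and 17 peaks whose median width was 18.7 kb, 76.5% of them joined to another gene. At both limits Mir10b, Mir196a-1, Mir196a-2, Mir196b, Mir9-2, Mir9-3, Mir129-2 and Mir3093 remained whole under a peak, and none of the 3 Mir124a genes did. The median width was 4.59 kb both with mean q-values no higher than 0.05 and at a width of at least 1 kb. Positions of the gene table gave 122 symbols, 84 of them in the flank, and 30 whole, and the 84 include genes that the annotation left without a symbol. A reach of 1 kb left 17 flanking symbols. Counted by an overlap of at least 1 base, 3.01% of the microRNA genes of the gene table had a peak in place of 10.3%. With 1 library of each kind, the peak caller's cutoff sets the lowest pileup that could be called, so a gene without a peak may carry a weaker mark that was not detectable at this depth.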

Other observations

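Seeds tied some genes outside the deposited symbols to those described. The seed GGCAGUG was shared by Mir34b with Mir34a, Mir449a and Mir449c. Mir449a and Mir449b, known from multiciliated cells like Mir34b, lay 1926 and 1811 bp, and Mir449c less than 1 kb, from a peak of 9.15 kb with a fold enrichment of 3.60, while Mir34a lay 21.8 kb from the nearest peak. The deposited annotation gave their records no symbol.

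Mir1897 lay partly under a peak of 11.0 kb with a fold enrichment of 3.54, and Mir1199 lay 1197 bp from a peak of 0.529 kb with a fold enrichment of 3.97, near the highest value at any joined microRNA gene. MicroRNA genes numbered below 1000, which were named earlier, lay whole under a peak in 20 of 526 cases (3.8%, 95% Wilson interval 2.47 to 5.80%), and those numbered 1000 or more in 10 of 654 (1.53%, 0.833 to 2.79%). This difference was not tested.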
